A study of Mus musculus with 9 samples.

Results

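The 95 genes described here encode the nuclear part of oxidative phosphorylation in mouse liver. They were chosen by symbol from the gene table of a liver RNA sequencing study: the symbols starting Nduf, Uqcr, Cox followed by a digit, or Atp5, and the 4 Sdh genes. Of 108 symbols that matched, 8 pseudogene entries were left out, and 5 genes fell below a mean scaled count of 10 (a read count divided by the authors' scaling factor of its library). The 95 that were kept, of 25781 genes in the table, comprise 45 for complex I, 4 for complex II, 8 for complex III, 22 for complex IV and 16 for complex V. By known function 77 of them are subunits or their paralogues, and 18 are assembly factors, which help to build a complex without being part of it. The rule used each gene's mean over all libraries and no difference between groups, although earlier results of these data were known when the genes were chosen.

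RNA came from livers of Swiss mice aged 10 to 12 weeks, with 3 libraries in each of 3 groups. The β-CYP + selenite group received β-CYP at 40 mg/kg and sodium selenite (Na2SeO3) at 50 µg/kg, the β-CYP group received β-CYP alone at 40 mg/kg, and the control group is labelled only as control. The name β-CYP is used as the labels give it. No sample received selenite alone, so selenite can be compared only on top of β-CYP. Whether each library stands for its own mouse is not stated. A p-value here therefore covers the spread among 3 libraries and no more, and that spread could be technical. Where values are given for the livers of a group, they are those of its 3 libraries.

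Oxidative phosphorylation takes place in the inner mitochondrial membrane. Complexes I and II feed electrons from NADH and succinate to coenzyme Q, complex III passes them to cytochrome c, and complex IV reduces oxygen. Complexes I, III and IV pump protons, and complex V, the ATP synthase, uses the resulting gradient to make ATP. Hepatocytes are rich in mitochondria and use this ATP for gluconeogenesis, urea synthesis and the export of proteins. Most subunits are encoded in the nucleus, and complexes I, III, IV and V each also contain subunits encoded by mitochondrial DNA.

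The transcripts of all 5 complexes were lower in livers given β-CYP with selenite than in either other group, with summed counts per complex 10.8% to 16.7% lower under the authors' scaling. The summed scaled count of the 95 genes was 242539, 242893 and 241983 in β-CYP + selenite livers, 282938, 281711 and 276888 in β-CYP livers, and 285095, 281659.8 and 283490.4 in control livers. Every β-CYP + selenite library lay below the other 6, while the β-CYP and control libraries overlapped. The sum was 13.6% lower with β-CYP + selenite than with β-CYP alone and 14.4% lower than in control. It was 1.02% lower with β-CYP than in control. In these bulk samples, fewer cells of a type and less RNA per cell cannot be told apart.

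In limma's test with Benjamini-Hochberg adjustment over all 20145 genes tested, 50 of the 95 genes were lower in β-CYP + selenite than in β-CYP livers at an adjusted p under 0.05, where 23.9% of all genes tested were called and 12.3% were called lower. None of the 95 was called higher by limma or by limma voom on the recovered reads, against 11.6% of all genes called higher by limma, and 1 was higher at an unadjusted p under 0.05. The median log2 change of the 95 genes was -0.20, against 0.02 for all genes tested, and 88 of the 95 changes were negative. Against control, 56 of the 95 were lower and 1 was higher, where 28.9% of all genes were called, 14.5% lower and 14.4% higher. Here the median was -0.21 against 0.03, with 87 negative. Among the 12906 genes within the same range of mean scaled counts, 17.4% were lower than in β-CYP livers and 19.8% lower than in control livers. The comparisons share the β-CYP + selenite libraries, so they are not independent of each other.

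The changes of single genes were small. The genes called lower fell by 7.98% to 40.3% against β-CYP and by 8.07% to 42.5% against control, with medians of 15.8% and 15.7%. For 51 of the 95 genes all 3 β-CYP + selenite libraries lay below the 6 others, which was so for 11.7% of all genes tested. The mean was lowest in β-CYP + selenite for 84 genes, in β-CYP for 7 and in control for 4. Within a group the median coefficient of variation of the 95 genes was 4.34% in β-CYP + selenite, 4.52% in β-CYP and 4.56% in control, against 2.23% to 2.27% from counting alone.

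How many genes pass depends on how libraries are made comparable. The authors' scaling sets the typical gene equal. With libraries instead set to equal totals, the median of all genes shifted by 0.12 (against β-CYP) and 0.13 (against control) on the log2 scale, and 10 of the 95 genes were called lower in each comparison. Relative to the median of all genes, the median of the 95 was -0.22 and -0.24 under the authors' scaling, a difference that a change of library totals moves little by construction. Quantile normalization, which reshapes each library, gave -0.14 and -0.12, with 35 and 27 of the 95 genes called lower and 2 higher in each comparison. With equal medians, which shifted all genes by -0.13 and -0.16, 71 and 79 genes were lower. Over all genes the split of higher and lower calls against β-CYP was 2337 and 2468 as deposited, 3238 and 1335 with equal totals and 1532 and 3853 with equal medians. Against control it was 2908 and 2915 as deposited, 3979 and 1764 with equal totals, and 1819 and 4550 with equal medians. The 95 genes took 0.798%, 0.797% and 0.787% of all reads in β-CYP + selenite libraries, 0.849%, 0.843% and 0.831% in β-CYP libraries, and 0.889%, 0.781% and 0.866% in control libraries. Control replicate 2, at 0.781%, holds 1805976 reads of AY036118, an rRNA-like transcript, and without those reads the share is 0.823%, above every β-CYP + selenite library.

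**Figure D1:**
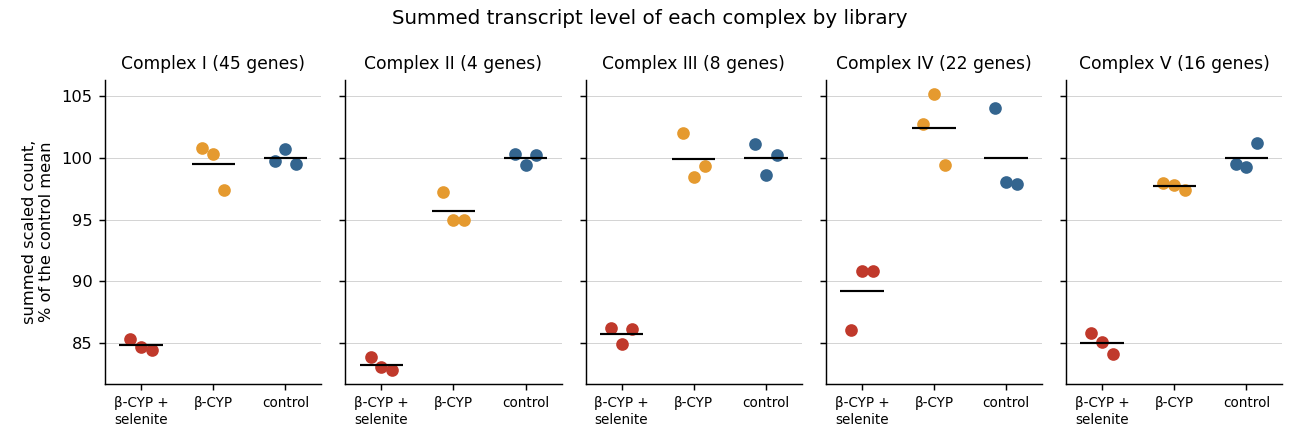
Summed scaled count of the genes of each complex in each library, as a percentage of the control mean; points are libraries and bars are group means, and the vertical axis does not start at 0. In every complex the 3 β-CYP + selenite libraries lie below the 6 others.

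By complex, the summed scaled counts in β-CYP + selenite livers were 14.8% (complex I), 13.0% (II), 14.2% (III), 12.9% (IV) and 13.0% (V) lower than in β-CYP livers. Against control they were 15.2% (I), 16.7% (II), 14.2% (III), 10.8% (IV) and 14.97% (V) lower. With equal library totals the differences were smaller, with log2 ratios of the sums of -0.10, -0.075, -0.094, -0.073 and -0.074 against β-CYP and -0.10, -0.13, -0.085, -0.028 and -0.098 against control for complexes I to V. In each complex the 3 β-CYP + selenite libraries lay below all others under the authors' scaling, as the plot of summed counts by complex shows. A sum is dominated by its genes with the most reads. In control, Sdha had a mean of 16612 within a complex II sum of 31193, and Atp5b and Atp5a1 hold much of the complex V sum. Under quantile normalization the selenite changes of Atp5b and Atp5a1, and that of Sdha against β-CYP, turned positive. The sums were not computed under that normalization, so their direction there is not known. Between β-CYP and control the sums of complexes I, III and IV overlapped, while complexes II and V were 4.27% and 2.28% lower with β-CYP, without overlap.

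A group of 9 genes was called lower in both selenite comparisons under every one of 21 alternative treatments of the data, including all scalings and the loss of any 1 library. Among them are Ndufv3, Ndufa6, Ndufaf3 and Ndufaf6 of complex I, Sdhd, Uqcrq, Cox20 and Atp5k. These are described first within their complexes.

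Promoters of 3 of these genes are shown: those of Sdhd and Atp5k carry binding motifs of the factors known to drive many oxidative phosphorylation genes, and Ndufv3, the subunit with the largest fall in complex I, has none of them in this window. Sequences are RefSeq's for GRCm38.p6, from 250 bases before to 50 after the start, and 77 of the 95 genes were matched, with 83 windows. The motifs searched on both strands were CGCNTGCGC for NRF1, CCGGAAG for ETS factors such as GABP, AAGATGGCG for YY1 and TCAAGGTCA for the oestrogen-related receptors (ERR). Capitals mark the matches. The Sdhd window, chr9:50603800-50604099 on the minus strand, holds NRF1, ETS and ERR motifs. The Atp5k window, chr5:108434350-108434649 on the minus strand, holds NRF1 (on both strands, overlapping) and ETS motifs. The Ndufv3 window, chr17:31519865-31520164 on the plus strand, holds none of the 4.
Sdhd: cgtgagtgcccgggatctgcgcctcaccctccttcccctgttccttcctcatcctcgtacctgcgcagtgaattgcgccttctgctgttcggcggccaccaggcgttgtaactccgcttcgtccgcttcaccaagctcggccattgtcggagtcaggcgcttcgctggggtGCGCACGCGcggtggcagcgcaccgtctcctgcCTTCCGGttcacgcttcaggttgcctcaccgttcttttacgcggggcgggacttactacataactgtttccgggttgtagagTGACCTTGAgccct
Atp5k: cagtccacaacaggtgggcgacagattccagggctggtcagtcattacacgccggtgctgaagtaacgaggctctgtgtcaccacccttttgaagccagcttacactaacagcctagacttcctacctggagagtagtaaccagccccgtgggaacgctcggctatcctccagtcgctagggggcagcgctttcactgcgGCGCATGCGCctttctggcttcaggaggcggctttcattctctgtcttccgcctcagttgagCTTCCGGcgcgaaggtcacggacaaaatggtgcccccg
Ndufv3: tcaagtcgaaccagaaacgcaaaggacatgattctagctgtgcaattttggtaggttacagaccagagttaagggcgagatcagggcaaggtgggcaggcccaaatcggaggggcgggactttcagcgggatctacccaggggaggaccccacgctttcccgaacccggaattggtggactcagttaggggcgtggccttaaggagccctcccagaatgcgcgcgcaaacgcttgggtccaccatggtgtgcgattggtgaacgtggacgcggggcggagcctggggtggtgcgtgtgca

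At least 1 of the motifs was found in 55.4% of the 83 windows, against 15.2% of 32851 promoter windows of all genes. The NRF1 motif was in 27.7% against 6.25%, the ETS motif in 28.9% against 8.86%, the YY1 motif in 10.8% against 1.40% and the ERR motif in 2.41% against 0.423%. The ETS and YY1 motifs occurred together in 3 windows and overlapped in none. Windows of genes lower in β-CYP + selenite than in control held a motif in 52.1% of 48 cases, and windows of genes not called in 58.8% of 34. The 2 shares were not tested against each other. A match is a description of letters, not a site of binding.

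Complex I, the NADH dehydrogenase, had 23 of its 45 genes lower against β-CYP and 25 lower against control. Of its 7 nuclear core subunits, which carry the flavin and the iron-sulfur clusters, 6 were lower in each comparison, and of its 29 accessory subunits 15 and 17 were. Ndufv3, an accessory subunit of the NADH-binding module, had scaled counts of 1189, 1183 and 1231 in β-CYP + selenite livers, 2134, 1800.1 and 1698 in β-CYP livers and 1989, 2337 and 1961 in control livers. The β-CYP + selenite libraries sat apart, well below the other 6. The log2 change was -0.64 ± 0.091 against β-CYP (limma adjusted p = 6.7e-04) and -0.80 ± 0.091 against control (adjusted p = 1.2e-04; ± gives the standard error, n = 3 per group). Ndufa6, an accessory subunit of the LYR protein family, had 1674, 1729 and 1749.8 in β-CYP + selenite livers, 2277, 2407 and 2186 in β-CYP livers and 2484, 2476 and 2468 in control livers. No library of the 3 reached the lowest of the others, and the changes were -0.41 ± 0.042 and -0.53 ± 0.042 (limma adjusted p = 7.0e-05 and 9.9e-06).

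Further complex I subunits fell by less. Ndufs6, a zinc-binding accessory subunit, had 1108, 976 and 1124 in β-CYP + selenite livers, 1502, 1360.0 and 1350.4 in β-CYP livers and 1378, 1261 and 1379 in control livers, and its log2 change was -0.39 against β-CYP and -0.33 against control. The core subunit Ndufv1, which binds NADH and the flavin, had 1863, 2204 and 2077 in β-CYP + selenite livers, 2984, 2629 and 2415 in β-CYP livers and 2492, 2503 and 2696 in control livers. All 3 β-CYP + selenite libraries were below the rest (log2 changes -0.38 and -0.33). Ndufs4, an accessory subunit whose loss causes a Leigh-like disease in mice, passed against control (log2 change -0.31 ± 0.083, limma adjusted p = 0.019). Against β-CYP its libraries overlapped, with scaled counts of 1332, 1332 and 1101 in β-CYP + selenite livers, against 1327, 1492 and 1505 in β-CYP livers, and it did not pass (adjusted p = 0.12). Subunits such as Ndufb8 and Ndufa8 overlapped across all groups, with changes against β-CYP of -0.04 and -0.09.

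Of the 9 complex I assembly factors, 2 were lower in each selenite comparison. That is 22.2%, where 12.3% of all genes tested were called lower against β-CYP and 14.5% against control. In a list this short, 2 calls are near these shares. Ndufaf6 had 131, 141 and 132 in β-CYP + selenite livers, 214, 189 and 225 in β-CYP livers and 229, 193 and 214 in control livers, and Ndufaf3 had 144, 134 and 139 in β-CYP + selenite livers, 216, 186 and 190.4 in β-CYP livers and 180.1, 216 and 224 in control livers. Both had all β-CYP + selenite libraries below the 6 others. The log2 changes of Ndufaf6 were -0.63 ± 0.11 and -0.65 ± 0.11, and those of Ndufaf3 were -0.50 ± 0.12 and -0.57 ± 0.12. Ndufaf5, a hydroxylase that modifies Ndufs7, was above control in both β-CYP groups. It had 108, 144 and 141 in β-CYP + selenite livers, 146, 157 and 163 in β-CYP livers and 78.9, 96.6 and 88.0 in control livers, with no overlap between the groups. Its log2 change was 0.82 ± 0.15 for β-CYP against control (limma adjusted p = 0.0044) and 0.56 ± 0.15 for β-CYP + selenite against control (adjusted p = 0.018). Against β-CYP alone the β-CYP + selenite libraries were lower, by -0.25, which did not pass (adjusted p = 0.27). Ndufaf4 had 1 library far from the rest, with 195, 182 and 182 in β-CYP + selenite livers, 763, 205 and 186 in β-CYP livers and 245, 196 and 169 in control livers, and was not called.

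Complex II, succinate dehydrogenase, is wholly nuclear encoded and also belongs to the citric acid cycle. Of its 4 genes, 3 were lower with β-CYP + selenite in both comparisons. Sdhd, a membrane anchor that binds coenzyme Q, had 4405, 4098 and 4146 in β-CYP + selenite livers, 5505, 5343 and 5348 in β-CYP livers and 5621, 5552 and 5509 in control livers, with log2 changes of -0.36 ± 0.033 and -0.40 ± 0.033 (limma adjusted p = 3.7e-05 and 1.3e-05). Sdhc, the other anchor, had 3671, 3519.9 and 3678 in β-CYP + selenite livers, 4356, 4184 and 4342 in β-CYP livers and 4393, 4392 and 4665 in control livers and changes of -0.25 and -0.31. In both anchors the β-CYP + selenite libraries stood clear of the rest. Sdha, the flavoprotein that oxidises succinate, had 13878, 13888 and 13529 in β-CYP + selenite livers, 15839, 15531 and 15419 in β-CYP livers and 16659, 16479 and 16699 in control livers. Its 3 groups did not overlap, with log2 changes of -0.18 against β-CYP, -0.27 against control and -0.09 for β-CYP against control, and under quantile normalization the first of these turned to 0.04. The iron-sulfur subunit Sdhb had 4211, 4396 and 4486 in β-CYP + selenite livers, 4629, 4562 and 4524 in β-CYP livers and 4618, 4599 and 4393 in control livers, and its changes of -0.07 and -0.06 did not pass the test.

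**Figure D2:**
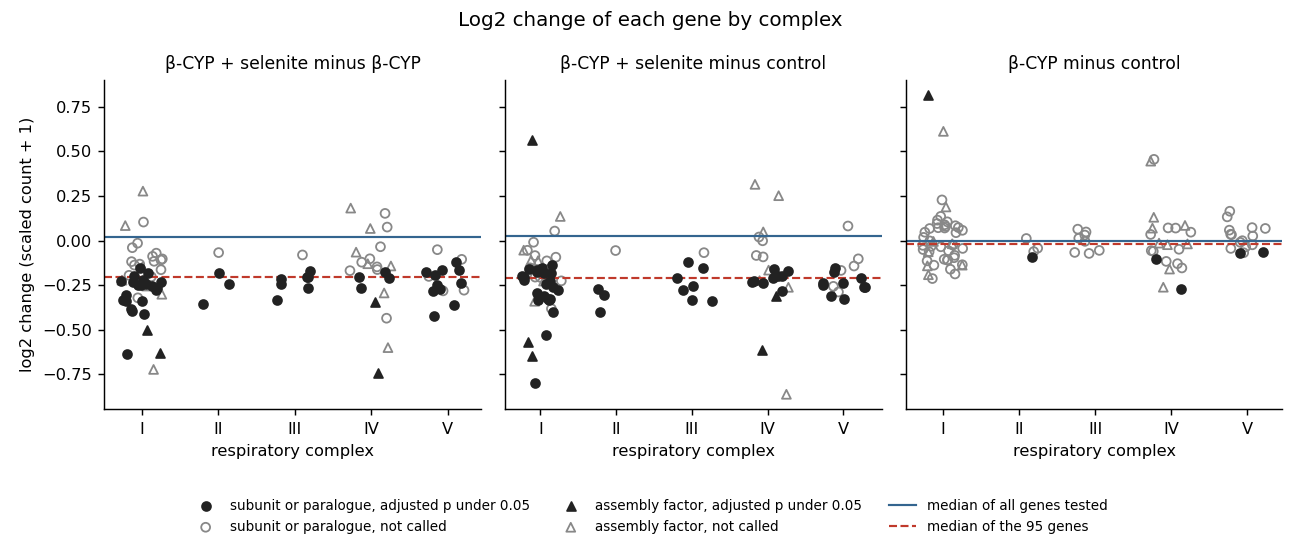
Log2 change of each of the 95 genes (vertical axis) by complex (horizontal axis) in the 3 comparisons; filled symbols passed an adjusted p of 0.05, triangles are assembly factors, and lines mark the medians of the 95 genes (dashed) and of all genes tested (solid). Both selenite comparisons have medians of -0.20 and -0.21, whereas in β-CYP minus control the median is -0.02.

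Complex III, the cytochrome bc1 complex, had 7 of its 8 nuclear genes lower in both comparisons. Uqcrq, a small subunit next to cytochrome b, had 3567, 3480.2 and 3547 in β-CYP + selenite livers, 4529, 4372 and 4433 in β-CYP livers and 4606, 4414 and 4357 in control livers. All 3 β-CYP + selenite libraries were below the other 6, with log2 changes of -0.33 ± 0.032 and -0.34 ± 0.032 (limma adjusted p = 4.5e-05 and 3.3e-05). Uqcr10 had 2579, 2573 and 2631 in β-CYP + selenite livers, 3319, 3084 and 2961 in β-CYP livers and 3254, 3336 and 3207 in control livers, again without overlap, with changes of -0.27 and -0.33. Uqcrb, the subunit that binds near the coenzyme Q site, changed by -0.20 and -0.28, and the hinge subunit Uqcrh by -0.24 and -0.21. The Rieske iron-sulfur protein Uqcrfs1, which passes electrons to cytochrome c1, had 3725, 3458 and 3392 in β-CYP + selenite livers, 3972, 3935 and 3977 in β-CYP livers and 3834, 3828 and 3832 in control livers. Its changes were the smallest that passed in this complex against β-CYP, -0.17, and -0.12 against control, the second of which turned to 0.01 with equal totals. Uqcr11 was not called, with changes of -0.08 and -0.07.

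Complex IV, cytochrome c oxidase, had fewer genes past the test against β-CYP than against control, 6 and 11 of 22. Of all genes tested, 12.3% and 14.5% were called lower. The summed counts of the complex were 12.9% and 10.8% lower, so the numbers of calls do not rank the sizes of the 2 differences. Cox20, an assembly factor that chaperones the mitochondrially encoded subunit Cox2, had 273, 299.8 and 259.7 in β-CYP + selenite livers, 436, 467 and 492 in β-CYP livers and 450.2, 460.0 and 368 in control livers. The β-CYP + selenite libraries were all below the others, with log2 changes of -0.74 ± 0.10 and -0.61 ± 0.10 (limma adjusted p = 5.7e-04 and 0.0015). The haem A synthesis factor Cox10 was called against control (-0.31) and the Cox2 insertion factor Cox18 against β-CYP (-0.35). The adjusted p of Cox10 against β-CYP was 0.068 and that of Cox18 against control 0.07, so the 2 genes are not shown to differ in this. Cox7b, a small structural subunit, had 3292, 3189.6 and 3241 in β-CYP + selenite livers, 3619.6, 3673 and 3697 in β-CYP livers and 3938, 3903 and 3979.6 in control livers, which put the 3 groups in 1 order without overlap. Its changes were -0.18, -0.28 and, for β-CYP against control, -0.11.

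Several complex IV subunits exist as liver and muscle forms, and Cox4i1, the ubiquitous form of subunit 4, was unusual in its spread. It had 4546, 7029.6 and 7036 in β-CYP + selenite livers, 8313, 8473 and 7893 in β-CYP livers and 7828, 5229 and 5272 in control livers. One β-CYP + selenite library was low and 1 control library was high, the groups overlapped against control, and neither selenite change passed (-0.44, adjusted p = 0.14 by limma, and 0.02). The liver form Cox6a1 had 4700.1, 5021 and 5107 in β-CYP + selenite livers, 6208, 5986 and 5659 in β-CYP livers and 5846, 5635 and 5521 in control livers, with changes of -0.27 and -0.20, both past the test. Cox8a changed by -0.21 and -0.17 and passed in both. Cox6b1, with -0.17 and -0.23, passed against control. Cox7a2, with -0.03 and -0.08, did not pass, whereas its paralogue Cox7a2l, which links complexes III and IV in supercomplexes, passed with -0.21 and -0.16. Ndufa4, once assigned to complex I and now known in complex IV, changed by -0.15 and -0.21, the second past the test. Its paralogue Ndufa4l2, a hypoxia-induced gene, had 16.6 to 38.3 scaled counts and was not called.

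The muscle and tissue-specific forms Cox6a2, Cox7a1, Cox8b, Cox4i2 and Cox6b2 were the 5 genes under the minimum. Their reads per library ran from 0 to 23. Cox6a2 had 23, 9 and 8 reads in β-CYP + selenite libraries and 0 in each of the other 6. Skeletal muscle markers moved with these reads: summed over 10 marker genes they came to 999 to 1058 reads in β-CYP + selenite libraries, 13 to 26 in β-CYP libraries and 16 to 27 in control libraries.

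Complex V, the ATP synthase, had 11 of its 16 genes lower against β-CYP and 10 against control. Atp5k, the e subunit involved in dimers of the enzyme, had 1349.7, 1334 and 1274 in β-CYP + selenite livers, 1675, 1729 and 1673 in β-CYP livers and 1569, 1674 and 1722 in control livers. Its β-CYP + selenite libraries were separate from the rest, with log2 changes of -0.36 ± 0.047 and -0.33 ± 0.047 (limma adjusted p = 3.8e-04 and 5.7e-04). Atp5h, the d subunit of the peripheral stalk, had 2573, 2757 and 2413 in β-CYP + selenite livers, 3204, 3710.4 and 3477 in β-CYP livers and 2955, 2894 and 3434 in control livers, with changes of -0.42 and -0.26. The stalk subunit Atp5f1 had 6239, 5825 and 5633 in β-CYP + selenite livers, 7202, 7340.2 and 7003 in β-CYP livers and 7441, 6727 and 7773 in control livers, with changes of -0.28 and -0.31. All libraries of the β-CYP + selenite group were below the others in both stalk genes.

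The subunits of the catalytic head varied little between libraries of a group. Atp5b, the beta subunit, had 25674, 24996 and 25307 in β-CYP + selenite livers, 28991, 28867 and 29048 in β-CYP livers and 30049, 30202 and 30748 in control livers, and Atp5a1, the alpha subunit, had 22799, 22007 and 22024 in β-CYP + selenite livers, 25009, 24939 and 24984 in β-CYP livers and 26369, 25959 and 26389 in control livers. In both genes the 3 groups were fully separate. The log2 changes of Atp5b were -0.19, -0.26 and, for β-CYP against control, -0.07. Those of Atp5a1 were -0.17, -0.24 and -0.07. All 6 turned positive under quantile normalization, to between 0.02 and 0.16. The 3 genes for subunit c of the membrane rotor, Atp5g1, Atp5g2 and Atp5g3, which encode the same mature protein, were all lower, by -0.16, -0.27 and -0.12 against β-CYP and -0.21, -0.24 and -0.16 against control, and Atp5g3 turned to 0.01 against β-CYP with equal totals.

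**Figure D3:**
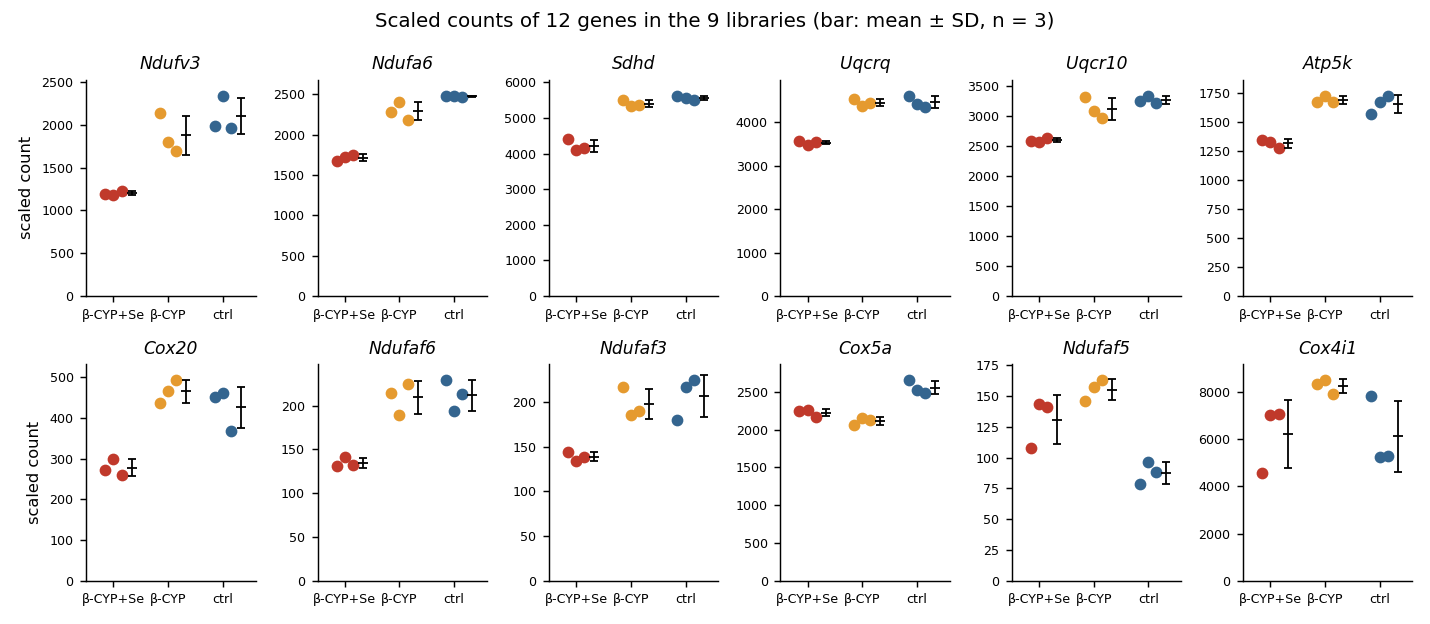
Scaled counts of 12 genes in each of the 9 libraries (points) with the group mean and SD (bars, n = 3), with axes starting at 0. The first 9 genes have all β-CYP + selenite libraries below the others; Cox5a is lowest in β-CYP, Ndufaf5 is lowest in control, and Cox4i1 varies within groups.

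Among the genes called between β-CYP and control, Ndufaf5 and Cox5a had the largest changes. Between β-CYP and control, limma called 5 of the 95 genes lower and 1 higher, where 16.3% of all genes tested were called, 8.58% lower and 7.72% higher, so the share of the 95 was below the background. The median log2 change of the 95 genes was -0.02, against 0.00 for all genes. Cox5a, a subunit on the matrix side of complex IV, had 2246, 2258 and 2173 in β-CYP + selenite livers, 2057, 2157 and 2122 in β-CYP livers and 2652, 2520.5 and 2492 in control livers. Both β-CYP groups were below control without overlap. The log2 change was -0.27 ± 0.039 for β-CYP (limma adjusted p = 9.5e-04) and -0.20 ± 0.039 for β-CYP + selenite (adjusted p = 0.0037). Between β-CYP + selenite and β-CYP the change was 0.08 and did not pass (adjusted p = 0.21). Besides Cox5a the genes lower with β-CYP were Sdha, Cox7b, Atp5a1 and Atp5b, with changes of -0.11 to -0.07, and each lost its call under at least 1 alternative.

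The 18 assembly factors as a group had fewer calls than the subunits. Of the 77 subunits and paralogues 46 were lower against β-CYP and 52 against control. Of the assembly factors 4 were lower in each comparison, and 1, Ndufaf5, was higher against control. The 4 are 22.2% of the 18, where 12.3% of all genes tested were called lower against β-CYP and 14.5% against control. The median log2 changes of the 2 classes were -0.24 (assembly factors) and -0.20 (subunits) against β-CYP, and -0.20 and -0.21 against control. The assembly factors had fewer reads and a wider spread. Cox19 varied widely within every group, with 557, 128 and 204 in β-CYP + selenite livers, 113, 427 and 206 in β-CYP livers and 154, 109 and 515 in control livers. The difference in the number of calls was not tested.

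**Figure D4:**
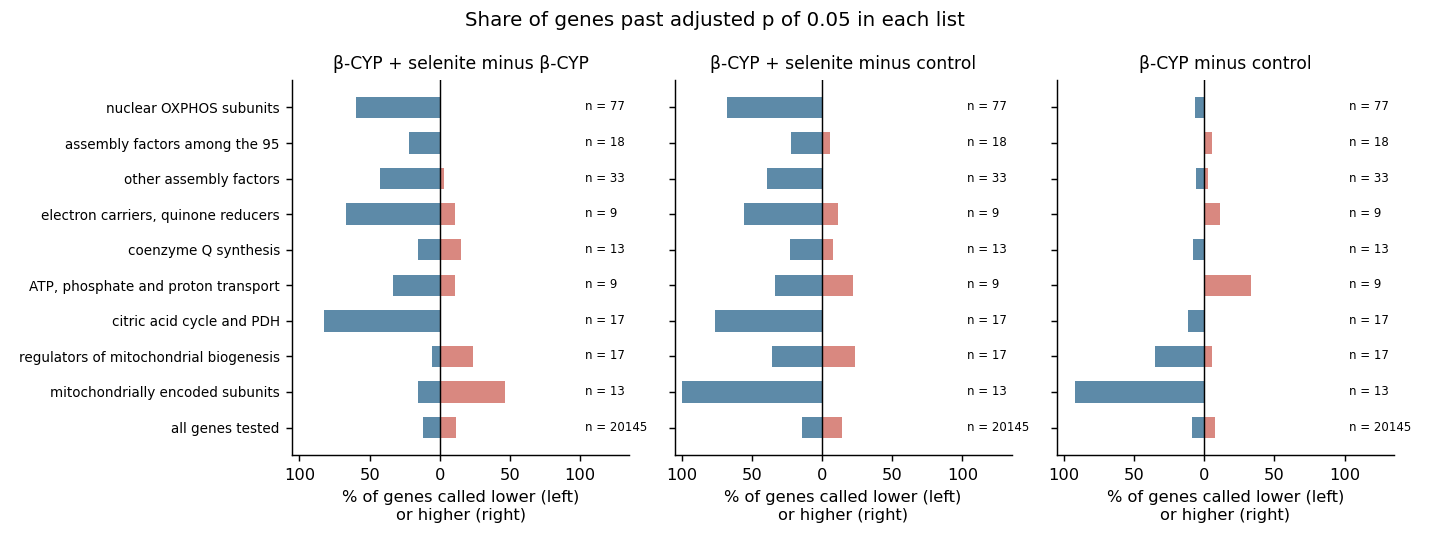
Percentage of genes called lower (left of 0) or higher (right of 0) at an adjusted p under 0.05 in each gene list and among all genes tested, in the 3 comparisons; n is the number of genes tested. The nuclear subunits and the citric acid cycle are mostly lower in both selenite comparisons, and the mitochondrially encoded subunits in both comparisons with control.

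The regulators of mitochondrial biogenesis did not move in 1 direction. Of 17 tested, 4 were higher and 1 lower in β-CYP + selenite than in β-CYP, 4 higher and 6 lower than in control, and 1 higher and 6 lower in β-CYP than in control. Against β-CYP these are 23.5% higher and 5.88% lower, beside 11.6% and 12.3% of all genes tested. Against control they are 23.5% and 35.3%, beside 14.4% and 14.5%. For β-CYP against control they are 5.88% and 35.3%, beside 7.72% and 8.58%. In a list this short, a few calls are near these shares. Their log2 changes ran from -0.49 to 0.69 against β-CYP, from -1.39 to 0.73 against control, and from -1.24 to 1.09 for β-CYP against control. Ppargc1a, the coactivator PGC-1α, had 150.1, 161 and 152 in β-CYP + selenite livers, 236, 169 and 186 in β-CYP livers and 414, 382 and 423 in control livers. Both β-CYP groups were below control, by -1.39 and -1.05, and the change between them, -0.33, did not pass. Another regulator fell further with β-CYP against control, by -1.24. Gabpa, the DNA-binding subunit of GABP, was higher with β-CYP + selenite by 0.40 against β-CYP and 0.38 against control. Esrra, which encodes ERRα, was lower than in control by -0.53 with β-CYP + selenite and -0.39 with β-CYP. Nrf1 changed by 0.23 and -0.11 in the selenite comparisons and was not called, and neither was Tfam, which packages and transcribes mitochondrial DNA (-0.08 and -0.17).

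The subunits encoded by mitochondrial DNA followed another order. Of 13, 12 were lower in β-CYP than in control (median -0.39), 13 were lower in β-CYP + selenite than in control (median -0.35), and in β-CYP + selenite against β-CYP 6 were higher and 2 lower (median 0.03). Over all genes tested, 8.58% and 14.5% were called lower in the first 2 of these comparisons. In the third, 11.6% were called higher and 12.3% lower. The ATP synthase subunit mt-Atp6 had 113486, 122751 and 129902 in β-CYP + selenite livers, 33820.0, 34891 and 34049.5 in β-CYP livers and 173161, 183256 and 183544 in control livers on the scale of scaled counts. Its libraries formed 3 separate groups, with β-CYP lowest. This gene was the extreme of the 13 and not typical of them. Its log2 change for β-CYP against control was -2.39, where the quartiles of the 13 were -0.48 and -0.35. For β-CYP + selenite against β-CYP it was 1.83, where the quartiles were -0.07 and 0.18.

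Enzymes around the chain were also lower with β-CYP + selenite. Of 17 genes of the citric acid cycle and pyruvate dehydrogenase, 14 were lower against β-CYP, 13 against control, and 2 were lower in β-CYP than in control. The shares of all genes called lower in these comparisons were 12.3%, 14.5% and 8.58%. Idh2, which makes NADPH in mitochondria, changed by -0.55 and -0.59, and Dlat, a pyruvate dehydrogenase component, by -0.52 and -0.45. Of 9 electron carriers and other enzymes that reduce coenzyme Q, 6 were lower and 1 higher against β-CYP, and 5 lower and 1 higher against control. Proline dehydrogenase Prodh fell by 43.8% and Etfdh, which takes electrons from fatty acid oxidation, by 27.8% against β-CYP, while the choline dehydrogenase Chdh rose by 0.28 on the log2 scale. Of 33 further assembly factors, 14 were lower and 1 higher against β-CYP, and 13 were lower against control. Lyrm7, which stabilises the Rieske protein before its insertion into complex III, had 53.4, 49.8 and 37.4 in β-CYP + selenite livers, 88.4, 102 and 115 in β-CYP livers and 188, 154 and 191 in control livers, so its 3 groups were separate.

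The genes of coenzyme Q synthesis and the carriers of ATP had calls in both directions, at shares to be read against the 11.6% higher and 12.3% lower of all genes against β-CYP and 14.4% and 14.5% against control. Of 13 coenzyme Q genes, 2 were higher and 2 lower against β-CYP, and 1 higher and 3 lower against control, numbers near that background. Coq8b, a kinase-like protein of that pathway, had 1283, 1230.5 and 1275 in β-CYP + selenite livers, 484, 457 and 559 in β-CYP livers and 436, 373 and 433 in control livers, which placed β-CYP + selenite far above both others. Of 9 transport genes, 1 was higher and 3 were lower against β-CYP, 2 higher and 3 lower against control, and 3 were higher in β-CYP than in control. Atpif1, the inhibitor of the ATP synthase when it runs in reverse, had 241, 299 and 332 in β-CYP + selenite livers, 639.7, 612 and 581 in β-CYP livers and 419, 399.6 and 409 in control livers. It was highest in β-CYP and lowest in β-CYP + selenite, with no overlap, and its log2 changes were -1.08, -0.50 and, for β-CYP against control, 0.58. Slc25a4, the muscle form of the ADP/ATP carrier, rose by 0.94 and 1.07 on the log2 scale, whereas its relative Slc25a5 changed by -0.21 and -0.18.

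Markers of several cell types differed between the groups too. Of all genes tested, 11.6% were called higher and 12.3% lower against β-CYP, and 14.4% higher and 14.5% lower against control. In lists this short, 1 or 2 calls are near these shares. Of 8 hepatocyte markers, 7 were lower and 1 higher in β-CYP + selenite than in β-CYP, and 5 lower and 2 higher than in control, and all 8 were expressed in every group. Their summed scaled count was 3260278 to 3315499 in β-CYP + selenite, 3798074 to 3910265 in β-CYP and 3134133 to 3284662 in control. All 12 pancreatic acinar markers were higher in β-CYP + selenite, where they took 0.126% to 0.129% of reads, against 0.00348% to 0.00370% in β-CYP and 0.00273% to 0.00353% in control. The skeletal muscle markers, 9 of 9 tested higher, took at most 0.00330% of reads in β-CYP + selenite. Kupffer cell markers were higher in 6 of 8 against β-CYP and 5 of 8 against control, and summed to 13917 to 14075 scaled counts in β-CYP + selenite, 11519 to 11596 in β-CYP and 11659 to 11961 in control. Against β-CYP the other lists had 3 higher and 1 lower of 5 brown adipocyte markers, 2 lower of 7 erythroid, 2 higher of 8 lymphocyte, 2 higher and 2 lower of 7 sinusoidal endothelial, 1 lower of 5 cholangiocyte and 2 higher and 1 lower of 7 stellate cell markers. Against control they had 1 lower of the brown adipocyte, 5 lower of the erythroid, 1 higher and 3 lower of the sinusoidal endothelial, 1 higher and 1 lower of the cholangiocyte and 5 higher of the stellate cell markers, and no call by limma among lymphocyte markers, with 2 at an unadjusted p under 0.05, or among cardiac muscle markers, with 0. Spermatid (9), neutrophil (6) and cardiac muscle (5) markers had no call by limma against β-CYP, with 1 of each list at an unadjusted p under 0.05, whereas against control all 9 spermatid markers were lower and 5 neutrophil markers higher. The summed scaled count of the brown adipocyte markers was 1474 to 1613 in β-CYP + selenite, 7210 to 7535 in β-CYP and 5924 to 6079 in control. That of the cholangiocyte markers was 1877 to 2007, 6487 to 6840 and 2254 to 2429 in the same order. Sums and calls can differ, since a sum is dominated by its genes with the most reads. The part of the cell type markers in the lower counts of the 95 genes was not tested.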

How the data were processed

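Liver RNA of 9 mouse libraries was sequenced. Per the labels' protocols, RNA was harvested in Trizol and prepared with the TruSeq RNA LT kit; both a BGISEQ and an Illumina instrument are named. The authors deposited log2 values for 25781 genes. HISAT, Cufflinks and the build mm9 are named per the submitters' processing notes, and the annotation and counter were not given in the sources used here. Undoing the deposited log2 (value minus 1 after exponentiation) gave scaled counts, and multiplying by the library's factor gave whole reads, within 0.02, for 100% of values. The factors equal median-of-ratios factors. Libraries held 28630269 to 36029560 reads. Counting alone gives the 95 genes a median error of 2.23% to 2.27%, against a median spread between libraries of 4.34% to 4.56%, and for genes with few reads, such as the assembly factors, it is larger. How reads shared with near-identical copies were treated is unknown, which makes single values of Atp5k, Atp5l, Cox20, Ndufab1 and Uqcrh, which have pseudogene entries, and of the 3 Atp5g genes uncertain. The library kit does not mark strand, so overlapping genes cannot be told apart.

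Limma 3.58.1 in R 4.3.3 fitted the means of the 3 groups over all 9 libraries, on log2 of the scaled count with a pseudocount of 1 and an intensity trend, for 20145 genes whose mean was at least 1. Two-sided p-values were adjusted by Benjamini and Hochberg's method over these genes, and an adjusted p under 0.05 is a call. The pseudocount shrinks the fold of genes with few reads. The model was tested on simulated data. The design foresaw count tests if reads were recovered, and these were not run, since the deposited unit is log2. Limma voom on recovered reads was tried instead. The 95 genes, the 7 pathway lists and the 13 marker lists were chosen with earlier results of these data known. Genes named with values were, per comparison and complex, the largest changes past the threshold, those past it by at least 0.5, the isoform sets, the Sdh genes and the leading members of each list, beside further members as examples; 1 such gene is not reported here. Alternatives were other scalings, pseudocounts and filters, the replicate block, only the 6 libraries compared, and leaving out each library.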

Additional observations from a re-analysis of the deposited data

Results flagged for a closer look

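Among the entries left out of the 95 genes for low counts or as pseudogenes, 3 had more reads in every library of a treated group than in any control library. Cox6a2, the muscle form of subunit 6a of complex IV, had 23, 9 and 8 reads in β-CYP + selenite libraries, so at least 8 in each, and 0 in each β-CYP and control library. Cox7a1, the muscle form of subunit 7a, had 16, 11 and 22 reads in β-CYP + selenite libraries, so at least 11, against 6, 0 and 0 in β-CYP and 0, 8 and 0 in control libraries. The pseudogene entry Ndufab1-ps had 17, 21 and 23 reads in β-CYP libraries, so at least 17, against 15, 11 and 13 in control libraries. These are few reads, and no test was run on them. The skeletal muscle markers that moved with the first 2 are given in the report, and their part was not tested.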

How the results depend on the processing

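The median of the 95 genes kept its sign in the selenite comparisons under all 21 alternatives. Against β-CYP and control in that order it was -0.077 and -0.072 with equal library totals, -0.079 and -0.097 with equal totals without AY036118, -0.16 and -0.13 under quantile normalization and -0.33 and -0.37 with equal medians; trimmed-mean scaling gave -0.22 against β-CYP. Lower calls were 10 and 10 with equal totals, 13 and 17 without AY036118, and 27 against control under quantile normalization. Higher calls against β-CYP were 2 with equal totals, with and without AY036118, and 2 under quantile normalization, which also gave 2 against control, where equal medians gave 0. Log2 ratios of the complex sums with equal totals, complexes I to V, were -0.10, -0.075, -0.094, -0.073 and -0.074 against β-CYP and -0.10, -0.13, -0.085, -0.028 and -0.098 against control.

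For β-CYP against control, lower calls were 1 with equal totals with or without AY036118, 2 under quantile normalization, 3 with no filter on low values, and the median was -0.049 with equal medians and -0.032 with equal totals without AY036118. Leaving out 1 library gave 1 to 6 lower and 1 to 2 higher calls and medians of -0.024 to -0.0026 there; 1 lower call was left without β-CYP replicate 3, and 2 without any 1 of the other β-CYP or control libraries. Against β-CYP, leaving out 1 library gave 41 to 49 lower and 0 higher calls and medians of -0.22 to -0.19; against control it gave 44 to 54 lower, 0 to 1 higher and -0.22 to -0.20. Of the genes called against β-CYP 10 of 50, and against control 10 of 57, passed under every alternative.

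Among the genes named, some changed sign. Under quantile normalization Sdha was 0.044 and Slc25a5 0.033 (against β-CYP and against control in that order), Atp5a1 was 0.079 against β-CYP, 0.10 against control and 0.022 for β-CYP against control, and Atp5b 0.12, 0.16 and 0.037 in the same order. With equal totals Uqcrfs1 was 0.015 against control and Atp5g3 0.0069 against β-CYP, or 0.0051 without AY036118. The cause was not tested.

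The replicate number as a block gave 45 and 52 lower calls in the selenite comparisons and 2 in β-CYP against control. Deviations of same-numbered libraries correlated at -0.011 to 0.032 over 9 pairs, so the numbers were not taken as pairs. The edgeR and DESeq2 alternatives were not run, and equal totals without AY036118 and voom were chosen after seeing the data. Voom gave 49, 55 and 5 lower and 0, 1 and 1 higher calls (against β-CYP, against control, and β-CYP against control). Depth limits the genes with few reads, such as Ndufa4l2 and the muscle isoforms.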
